A study of Oryctolagus cuniculus with 54 samples.

Results

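Lungs of 6 rabbits in the canalicular phase of lung development were compared with lungs of 6 rabbits in the early alveolar phase, all sequenced in the same run. The canalicular group held 3 fetuses taken by C-section on gestation day 25 (F25) and 3 on day 27 (F27). The alveolar group held 3 pups born naturally on day 31 and sampled right after birth (T31) and 3 pups kept with their mothers in room air until day 35 (T35), that is for 4 days. They account for 12 of the 54 libraries of the series and were taken by their time point and sequencing run. All animals were New Zealand White rabbits without experimental treatment. Dams of the fetuses were given medetomidine, ketamine and xylazine and were killed with pentothal before the C-section. Each lung of a time point came from a different dam, and RNA was taken from homogenate of the total right lung. The phases were assigned to the time points as in the study.

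In the canalicular phase the epithelial tubules widen, lengthen and branch, the connective tissue between them is reduced, and blood vessels around them increase. The saccular phase that follows widens these tubules into thin-walled sacs and brings surfactant production, and in the alveolar phase septa grow into the sacs and divide them into alveoli. Birth falls between the compared groups, so the alveolar lungs were breathing air and the canalicular lungs were filled with fluid. Age, birth, the way of delivery, the drugs given to the dams and, at T35, rearing by the mother therefore cannot be told apart in this comparison. In a homogenate of a whole lung, fewer cells of a type and less RNA per cell cannot be told apart either.

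Expression was measured with QuantSeq, a method that sequences messenger RNA from the 3′ end. The unit used below is CPM, the counts of a gene per 1000000 counts of a library, after scaling between libraries with the TMM method. The 29587 genes of the deposited table carry Ensembl identifiers, and the file does not pair them with gene names. None of them could be matched to a name (0 matched), so marker genes of lung cell types could not be checked, and genes are described by their level, change and timing. The 12 libraries held 5771693 to 7381691 counts. The alveolar libraries were deeper than the canalicular ones, with a median of 6980252 against 6124324 counts (p = 0.00433, two-sided exact permutation test over 924 divisions, adjusted p = 0.013 over 4 library measures). They also held more genes with a count, with 15899 to 16070 against 15576 to 15958 (p = 0.00649, exact permutation test, adjusted p = 0.013). The part of depth in the differences of single genes was not tested, and CPM values are relative to it.

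The lungs of the 2 phases separated on the first principal component of the 14130 genes tested, which held 38.7% of the variance. Canalicular libraries lay between -62.84 and -13.29 and alveolar libraries between 32.42 and 61.76. F27 animal 11 was the canalicular library nearest to the alveolar group. The second component held 11.6% and divided the alveolar animals by time point, with T31 at -54.98, -29.11 and -14.41 and T35 at 25.87 to 35.52. T31 and T35 also differed in the level of a set of 11 genes given at the end, so age and that division cannot be told apart. Canalicular libraries with the high level of that set lay at 3.708 to 9.293 and those with the low level at -12.29 to 2.506. F25 and F27 overlapped on the second component. On the first, F25 lay at -62.84 to -43.92 and F27 at -42.8 to -13.29, next to each other without overlap. The mean distance between an F25 and an F27 library was 0.736, as the root mean square difference of log2 CPM over the genes, and within F25 and within F27 it was 0.708 and 0.692. Between T31 and T35 it was 0.816, against 0.762 and 0.684 within these time points. The longest mean distance was 1.08, between F25 and T35, and F27 and T31 lay 0.904 apart.

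**Figure D1:**
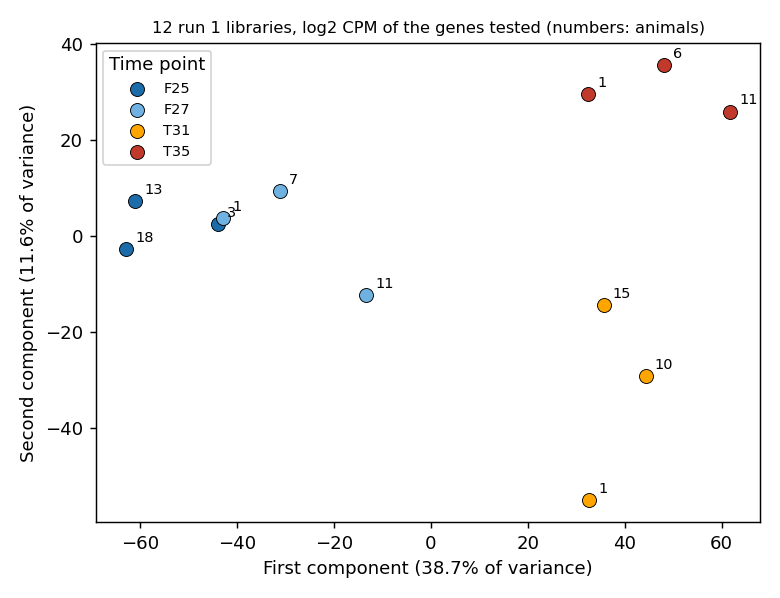
Principal component analysis of log2 CPM of the 14130 genes tested in the 12 libraries, with the first component (38.7% of the variance) on the horizontal and the second (11.6%) on the vertical axis; points are animals, coloured by time point and numbered as in the labels. Canalicular points lie at -13.29 or lower and alveolar points at 32.42 or higher on the first component, and T31 lies below T35.

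The alveolar lungs differed from the canalicular lungs in 1727 called genes, of which 975 had a higher and 752 a lower level. Calls needed more than a fold of 2 together with a p, adjusted by Benjamini-Hochberg over all genes tested, no larger than 0.05 in the quasi-likelihood test of edgeR. The calls were 12.2% of the genes tested, with 6.9% higher and 5.32% lower. By the adjusted p alone, whatever the fold, 3987 genes passed (28.2%), of which 2017 were higher and 1970 lower. The balance of directions moved with the size of change. Of the calls 56.5% were higher, and above a fold of 4 there were 348 genes higher and 138 lower. Above a fold of 8 the numbers were 114 and 26, above 16 they were 29 and 8, and above 32 they were 11 and 2. These numbers include genes with few counts in 1 phase, whose folds are imprecise. At most 3 counts over the other phase were found for 44 genes called higher and 16 called lower. Among called genes with separated libraries and at least 10 CPM on average, the largest folds were 34.3 and 31.1 higher and 6.03 and 5.42 lower. The part of low counts in the balance of directions was not tested. The median log2 fold change was 1.69 for genes called higher and -1.48 for genes called lower, with a median standard error of 0.37 over all called genes. The median over all genes tested was -0.02.

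All 6 alveolar libraries lay above or below all 6 canalicular libraries in 1460 genes (10.3% of those tested), 776 above (5.49%) and 684 below (4.84%). Among the called genes such a separation was found for 436 of the 975 higher genes (44.7%) and 281 of the 752 lower genes (37.4%). These counts describe genes already chosen for their difference. The other called genes had at least 1 animal inside the range of the other phase.

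Of 99 genes with a mean of at least 1000 CPM over both phases, 8 were called higher (8.08%) and 0 lower. Over all genes tested these shares were 6.9% and 5.32%, so the share called higher was close to that of all genes. Whether the lack of lower calls goes beyond these shares was not tested. That mean includes the alveolar level. Among the 8 genes the canalicular mean reached 1000 CPM only where it was 19300, 1140 or 1100 CPM. The others had canalicular means of 241 to 927 CPM. By the adjusted p alone 43 of the 99 genes passed, and their directions are not given here. Between 100 and 1000 CPM there were 84 genes higher and 29 lower, and below 1 CPM there were 137 and 93. The gene with the highest level of the 8 had 19300 ± 3380 CPM (SD, n = 6) in the canalicular and 52000 ± 14700 CPM (SD, n = 6) in the alveolar lungs, a 2.69-fold difference (log2 fold change 1.43, SE 0.20, edgeR adjusted p = 0.000352). The largest change among them was 8.26-fold, from 241 ± 212 to 1990 ± 304 CPM (SD, n = 6 each, edgeR adjusted p = 0.000277). In 6 of the 8 genes the libraries of the phases did not overlap. Their T31 and T35 means did not share 1 order, since the second most counted had 7000 CPM at T31 and 2350 at T35, whereas the most counted had 46300 and 57600.

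Together these 8 genes took 1.92% to 3.15% of all counts in the canalicular libraries and 4.33% to 7.84% in the alveolar ones. The saccular libraries of the same run, from fetuses of gestation days 28 (F28) and 29 (F29), held 3.52% to 5.32%. All 975 genes called higher took 3.35% to 5.6% of counts in the canalicular, 6.43% to 8.99% in the saccular and 8.77% to 13.2% in the alveolar libraries. The 752 genes called lower moved from 1.52% to 2.69% in the canalicular libraries through 0.954% to 1.4% in the saccular to 0.532% to 1.11% in the alveolar ones. All these genes were chosen for their difference in the same canalicular and alveolar libraries, so the directions of these shares were fixed by the choice. The most counted gene called higher alone took 1.53% to 2.4% in the canalicular and 2.4% to 6.23% in the alveolar libraries. Fewer genes made up 50% of all counts in the alveolar lungs, with 467 to 593 (median 530) against 560 to 698 (median 614; p = 0.013, two-sided exact permutation test, adjusted p = 0.0173). The share of the 10 most counted genes was 8.46% to 14.9% in the alveolar and 7.69% to 11.9% in the canalicular libraries and was not separated by the same test (exact permutation p = 0.0974).

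The share of genes called depended on the level of the gene. It was 11.4% below 1 CPM, 22% from 1 to 3 CPM, 19.1% from 3 to 10 CPM and 5.42% from 100 to 1000 CPM. Without the limit on the fold the order was different, with 11.4%, 24.1%, 30% and 33.8% in the same ranges and 43.4% of the 99 genes at 1000 CPM or more. The median standard error of the log2 fold change was 0.64 below 1 CPM and 0.12 from 100 to 1000 CPM. At high levels many genes passed with a difference below the fold of 2 and a small error. At low levels small differences were not detectable at this depth.

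**Figure D2:**
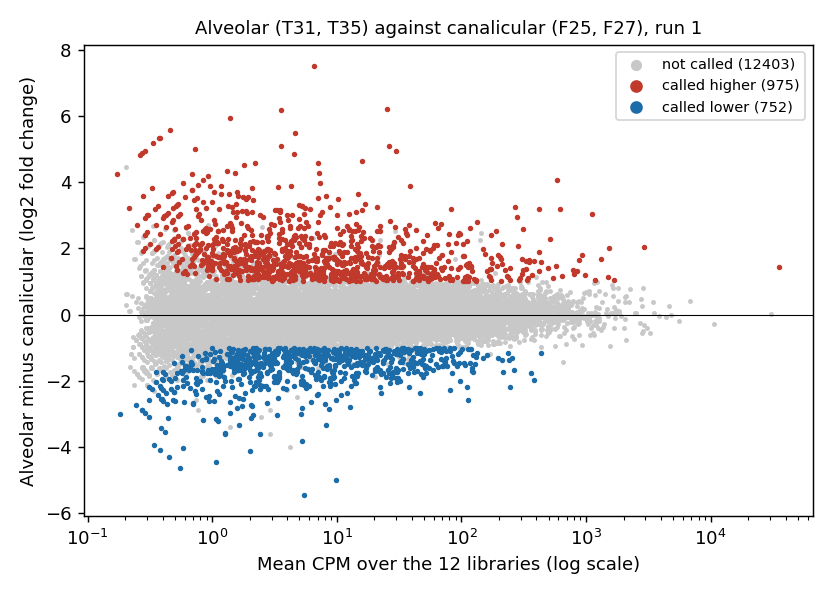
Log2 fold change of alveolar over canalicular lungs (vertical) against the mean CPM over the 12 libraries (horizontal, log scale) for the 14130 genes tested; red, called higher (975); blue, called lower (752); grey, not called. The red points reach farther from 0 than the blue ones, and at 1000 CPM or more 8 points are red and 0 are blue.

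A small set of called genes was counted in the alveolar phase only. In 8 genes called higher all 6 canalicular libraries had 0 counts, and the alveolar libraries together had 14 to 36 counts. Set against a floor of 3 counts over the canalicular group, or 0.0817 CPM, these genes were at least 4.11-fold to at least 10.6-fold higher in the alveolar lungs. A single one of them, with 27 counts, was seen in only 3 alveolar libraries. Among genes called lower, 0 had 0 counts in all alveolar libraries, which were the deeper ones. At most 3 counts in all over the other phase were found for 44 genes called higher and 16 called lower.

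The genes given in full are the pair with the largest change in each direction among called genes with separated libraries and at least 10 CPM on average, and they were picked after their values were seen. Their values below are a description of the top of the list. ENSOCUG00000003344 had 0.308 CPM in the lowest, 0.795 in the median and 3.51 in the highest canalicular library, and 11.5, 45.8 and 90 CPM in the alveolar ones. It was 34.3-fold higher in the alveolar lungs (log2 fold change 5.10, SE 0.58, edgeR adjusted p = 0.000106). Its animals differed widely within time points. At T31 the 3 animals read 11.5, 27.8 and 83.9 CPM, and at F27 they read 0.308, 2.71 and 3.51 CPM, whereas F25 was narrow at 0.628 to 0.801 CPM. The canalicular total was only 56 counts, so the size of the fold rests on few reads.

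ENSOCUG00000005136 had 0.615 CPM in the lowest, 1.98 in the median and 3.66 in the highest canalicular library, and 22.8, 56.5 and 94.6 CPM in the alveolar ones. It was 31.1-fold higher (log2 fold change 4.96, SE 0.40, edgeR adjusted p = 1.78e-05). Its saccular libraries read 7.44 to 33.2 CPM at F28 and 13 to 30.2 CPM at F29, all above every canalicular library. The saccular level of ENSOCUG00000003344 was lower, at 2.28 to 8.09 CPM at F28 and 3.48 to 11.3 CPM at F29, and both ranges overlapped that of F27.

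ENSOCUG00000003594 had 95.5 CPM in the lowest, 199 in the median and 268 in the highest canalicular library, and 19.4, 35.1 and 41.3 CPM in the alveolar ones. It was 6.03-fold lower in the alveolar lungs (log2 fold change -2.59, SE 0.24, edgeR adjusted p = 3.86e-05). The lowest canalicular value was that of F27 animal 11, and the other 5 lay at 175 CPM or above. ENSOCUG00000000672 had 9, 16.8 and 29 CPM in the lowest, median and highest canalicular library and 1.94, 2.78 and 5.47 CPM in the alveolar ones. It was 5.42-fold lower (log2 fold change -2.44, SE 0.31, edgeR adjusted p = 0.000188). Here too F27 animal 11 was the lowest canalicular library, and the saccular libraries, at 5.66 to 9.7 CPM, spanned its level. The saccular libraries of ENSOCUG00000003594, at 53.2 to 93.6 CPM, lay between those of the 2 phases without overlap. None of these 4 genes was called between T35 and T31 (edgeR adjusted p from 0.363 to 0.72). The fitted difference from the canalicular lungs was larger at T35 than at T31 in all 4.

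**Figure D3:**
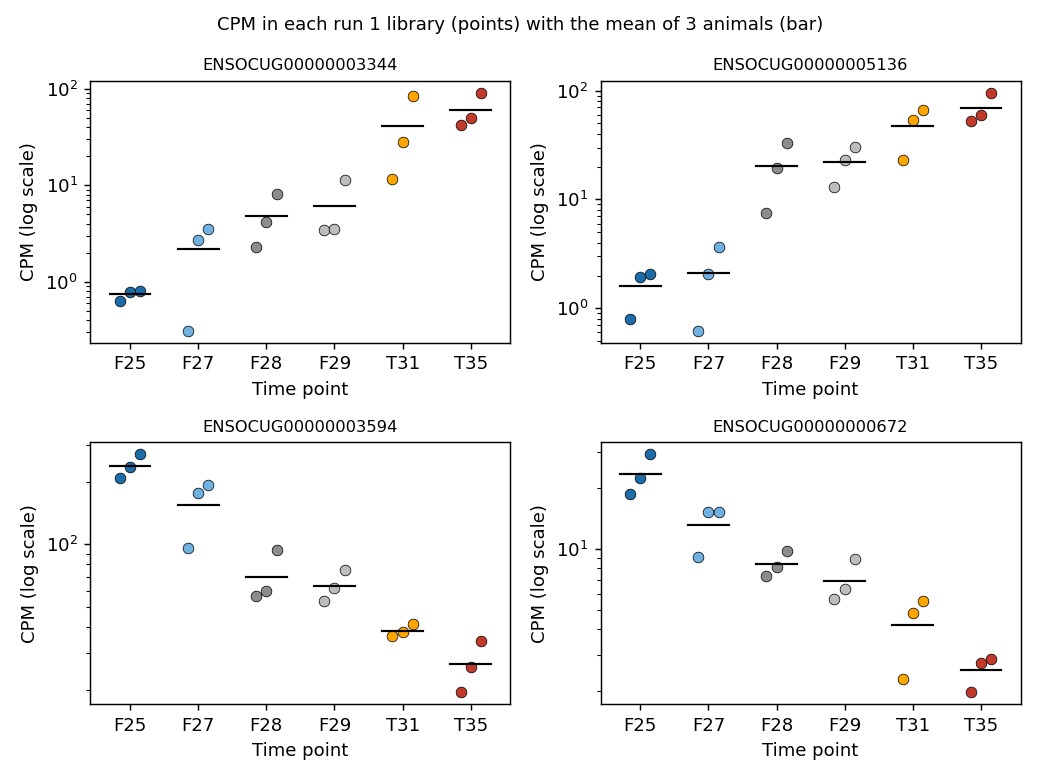
CPM (log scale) of 4 genes in the 18 libraries of the run, scaled over all 18, by time point from F25 to T35; points are animals and bars are means of 3 animals. In the upper row all alveolar points lie above all canalicular points and in the lower row below them, and the saccular points (F28, F29) lie mostly between.

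The saccular lungs of the same run took no part in the calls, and the levels of these genes before birth were read from them. Each gene was put on a scale with 0 at its canalicular mean and 100 at its alveolar mean of log2 CPM. The ends of this scale come from the libraries that chose the genes. A gene called through the spread between animals alone would tend to stand near 50 in other libraries. Positions of genes not called were not taken, so the values below are a description. The 975 genes called higher stood at a median of 43.8 at F28 (quartiles 20.7 and 73.4) and 63.3 at F29 (quartiles 37.6 and 93.6). The 752 genes called lower stood at 46.9 (quartiles 26.3 and 64.4) and 64.9 (quartiles 40.9 and 87.8). By F29, 62.8% of the higher and 67.3% of the lower genes were past 50 on the scale. A subset was already past the alveolar mean at F29, 21.1% of the higher and 14.1% of the lower genes, whereas 66 higher and 20 lower genes were still on the far side of the canalicular mean.

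The genes with the largest increases stood lower on the scale before birth than the others. The 114 genes more than 8-fold higher had medians of 35.1 at F28 and 49.6 at F29, against 44.5 and 65.2 for the 861 genes 2-fold to 8-fold higher. The 26 genes more than 8-fold lower had medians of 51.7 and 74.3, against 46.8 and 64.1 for the other 726. These differences were not tested.

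Within the phases, higher and lower genes differed in how they were divided over T31 and T35. The higher genes stood at 89.3 at T31 and 111 at T35, and the lower genes at 101 and 98.8. These values helped to choose the genes and are a description. All 3 T31 libraries were above all canalicular libraries in 518 of the 975 higher genes and in 1200 of all 14130 genes tested (8.49%). All 3 T35 libraries were above in 773 of the higher genes and in 1902 of all genes (13.5%). For the 752 lower genes the order was the reverse, with all 3 T31 libraries below in 509 and all 3 T35 libraries in 409. Over all genes tested T35 was the larger in this direction too, with 1732 (12.3%) against 1403 at T31 (9.93%). F25 and F27 stood at -11.8 and 11.8 for the higher and at -16.1 and 16.1 for the lower genes, symmetric about 0 by construction. Single animals stood out from their time point. F27 animal 11 had medians of 25.3 and 34.1, T31 animal 1 had 78.4 for the higher genes, and T35 animal 1 had 76.5 for the lower genes.

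**Figure D4:**
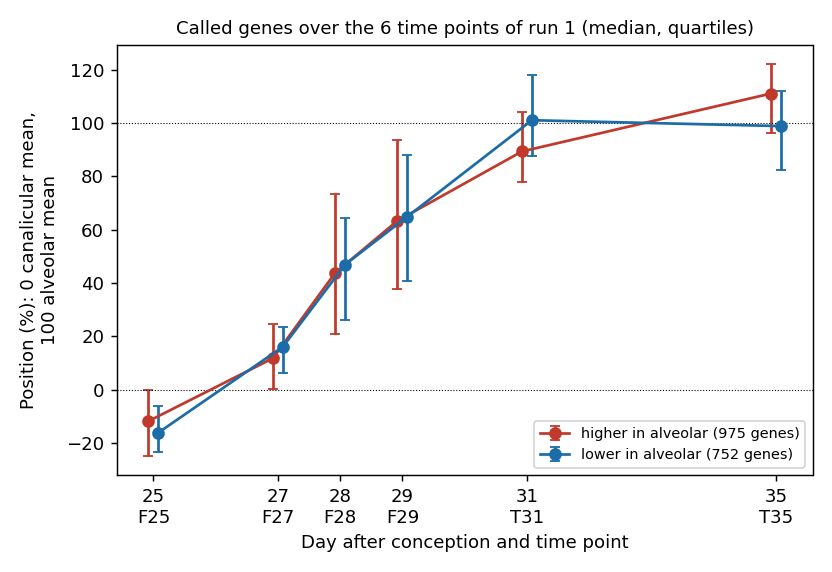
Median position (points) and quartiles (bars) of the called genes at the 6 time points of the run, by day after conception; 0 is the canalicular and 100 the alveolar mean of log2 CPM of each gene. Both sets of genes pass from -11.8 and -16.1 at F25 through 43.8 and 46.9 at F28 to 89.3 and 101 at T31.

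Set against the canalicular lungs separately, T31 gave 1443 calls (10.2%), with 835 higher (5.91%) and 608 lower (4.3%). T35 gave 1766 (12.5%), with 1069 higher (7.57%) and 697 lower (4.93%), against the same canalicular libraries. T35 and T31 differed from each other in 48 genes (0.34%), 30 higher (0.212%) and 18 lower (0.127%) at T35, in edgeR's test, and 1988 genes had an unadjusted p under 0.05. Of the 30 genes, 8 were among those called higher and 7 among those called lower between the phases, and of the 18 genes, 2 and 4 were. Over all genes tested 6.9% were called higher and 5.32% lower between the phases. These overlaps come from the same 12 libraries and were not tested. The median log2 difference was 2.33 for the 30 genes and -1.29 for the 18 genes. The count was not stable and was 299 with DESeq2. It was 0 without T35 animal 6 and 7, 14 and 19 without T31 animal 1, T35 animal 1 and T31 animal 10. It was 154 without T31 animal 15 and 153 without T35 animal 11. It also became 30 and 17 without F25 animals 3 and 18 and 25 and 27 without F27 animals 1 and 7. Between F27 and F25 edgeR called 0 genes (0%), limma-voom 0 and DESeq2 46, and 1149 genes had an unadjusted p under 0.05. edgeR called 9 genes without F27 animal 1 and 1 without F25 animal 18. The spread between animals, as the median SD of log2 CPM over 7915 genes with at least 10 CPM, was 0.148 at F25, 0.194 at F27, 0.245 at T31 and 0.195 at T35.

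Other animals of the series allowed the called genes to be measured again without any shared animal. In run 3, 7 older alveolar lungs were compared with 8 pseudoglandular ones. The older alveolar pups were sampled on days 37 and 42 (T37 and T42), and the pseudoglandular fetuses on gestation days 20 and 23 (F20 and F23). Per the methods, RNA of F20 and F23 came from whole lungs and that of later time points from right lungs. Age and the part of the lung used cannot be told apart there. That comparison spans a longer time and called 3628 genes (25.3%), with 2179 higher (15.2%) and 1449 lower (10.1%) in the older pups. Of the 953 genes called higher at T31 and T35 that were tested there, 84.3% were called higher and 0.315% lower, against 15.3% and 9.04% of all genes tested in both. Of the 706 genes called lower, 60.1% were called lower and 2.12% higher. The medians were 2.46 and -1.4 on the log2 scale, and -0.01 over all genes tested in both. The 803 genes called higher in both were 82.4% of the list of run 1 and 36.9% of the list of run 3, and the 424 genes called lower in both were 56.4% and 29.3%.

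Preterm pups gave a narrower comparison that lies wholly after birth. They were delivered by C-section on day 28 and kept in incubators in 21% oxygen. In run 2, 2 pups after 7 days (P7) were compared with 3 pups after about an hour (P0). The fit also held 3 pups after 3 days (P3), which entered the gene filter and the estimate of the spread. There 550 genes were called (4.12%), 416 higher (3.11%) and 134 lower (1%) at P7. Of the 942 tested genes called higher between the phases, 26.2% were called higher and 1.17% lower at P7, against 3.08% and 1.02% of all genes tested in both. A positive difference was found in 77.9% of these 942 genes, against 49.6% of all genes tested in both. Of the 618 genes called lower, 6.31% were called lower and 0.162% higher, and 38.3% had a positive difference. The median log2 differences were 0.62 and -0.22.

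**Figure D5:**
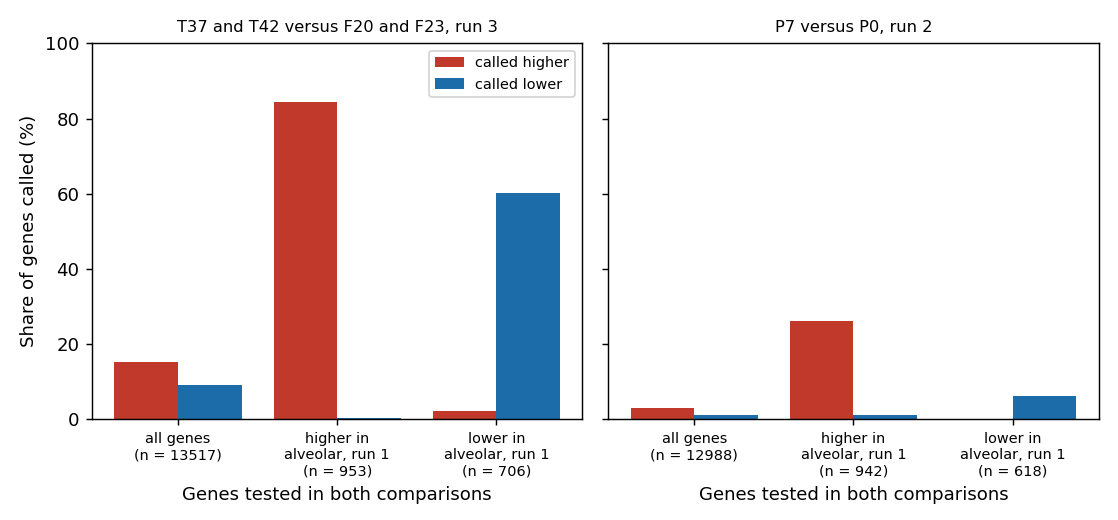
Share of genes called higher (red) and lower (blue) in 2 comparisons that share no animal with the comparison of the phases, for all genes tested in both and for the genes called higher or lower at T31 and T35. In run 3 (left) 84.3% of the higher genes were called higher and 60.1% of the lower genes lower, and in run 2 (right) 26.2% and 6.31%.

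The 4 genes given in full changed in the same direction in these animals. ENSOCUG00000003344 and ENSOCUG00000005136 were higher by 7.22 and 6.3 on the log2 scale in run 3 (edgeR adjusted p = 3.18e-09 and 8.81e-11) and by 3.8 and 2.7 at P7 over P0 (edgeR adjusted p = 0.000203 and 2.6e-05). ENSOCUG00000003594 and ENSOCUG00000000672 had log2 differences of -1.77 and -3.77 in run 3 and of -0.90 and -2.37 at P7 over P0, all with an adjusted p of at most 0.0327 in edgeR. For ENSOCUG00000003594 the P7 difference is below the fold of 2 and is no call. The run 3 libraries of T31, T35 and F25 are no such check on other animals. F25 animal 13, the only F25 library there, and T35 animals 6 and 11 were animals of the main comparison, sequenced again. The T31 animals were others. ENSOCUG00000000672 had a log2 difference of -1.12 there, less than in run 1. The differences were 5.08 for ENSOCUG00000003344, 4.91 for ENSOCUG00000005136 and -3.51 for ENSOCUG00000003594. With 1 F25 library the spread of the canalicular side is not known there. Levels were compared only within runs. F25 animal 13 was sequenced in runs 1 and 3, and with all 54 libraries scaled together ENSOCUG00000000672 read 19.8 CPM in its run 1 library and 2.38 CPM in its run 3 library.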

How the data were processed

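Lung RNA of 54 libraries was sequenced in 3 runs, and the 12 libraries of F25, F27, T31 and T35 of run 1 were compared. The authors deposited raw counts per gene as whole numbers. Per the methods and labels, QuantSeq FWD reads were trimmed with BBduk, aligned to OryCun2.0 with STAR and counted by HTSeq-count against Ensembl rabbit genes, with a custom script for unannotated 3′ UTR reads; versions are not given in the sources used here. No library was a copy of another (0 identical pairs), and 0 columns were left unmapped. Each animal was 1 replicate. A difference between runs cannot enter the comparison, because a single run was used.

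Genes reaching 0.5 CPM in 3 or more of the 12 libraries were tested with edgeR 4.0.16 (R 4.3.3; quasi-likelihood, TMM, time points in 1 fit for the T35 and T31 and the F27 and F25 contrasts), with Benjamini-Hochberg adjustment. This filter leaves low genes with few reads, whose folds are imprecise. The fitted fold change of a gene with 0 counts in 1 phase depends on a prior count. Log2 CPM values had a prior count of 2. limma-voom (limma 3.58.1), DESeq2 1.42.0, other scalings, filters and thresholds, a replicate block and the removal of single animals were alternatives. Permutation tests used scipy 1.17.1 (Python 3.11.15) and figures matplotlib 3.10.9. The fits were tested on simulated data. Reads carry no molecular identifiers in the sources used here, so counting floors cover counting error only.

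The comparison, its genes and its tests were chosen with earlier results of these data known. Gene lists, markers and motifs that were planned could not be applied, because 0 identifiers matched a symbol. The rule for named genes was the largest changes among called genes with separated libraries and at least 10 CPM, limited to 2 in each direction since no symbol could be paired with them here.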

Additional observations from a re-analysis of the deposited data

Results flagged for a closer look

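The change from the canalicular phase differed between T31 and T35 in 48 genes by the test of T35 against T31 itself, and this difference between time points of the same phase is why it is listed here. Of these genes 30 were higher and 18 lower at T35, with absolute log2 differences of 1.08 to 3.97 and 1.05 to 3.26, 3 animals a time point and edgeR's quasi-likelihood test with adjustment over 14130 genes. Their median mean level was 19.4 and 30.1 CPM. In 32 checks of groups of 6 libraries for a single distant library, 0 were found.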

How the results depend on the processing

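The 1727 calls between the phases stayed within 1.5 times in 24 of 30 alternatives, and in no alternative was a called gene called with the opposite sign (0 genes). They became 778 with at least 10 counts in every library, 3987 by the adjusted p alone, 922 with glmTreat at a fold of 1.5 and 959 against F27 alone. In the run 3 libraries, where the canalicular phase had 1 F25 library, 24 genes were called (10 higher, 14 lower), and that lone sample is assumed to vary like the other group. Leaving out single animals gave 1421 (without F25 animal 13) to 1884 calls (without F27 animal 11). The 48 calls between T35 and T31 became 22 with limma-voom, 299 with DESeq2, 211 without a filter, 81 with at least 10 counts, 3 with glmTreat and 186 with all 18 libraries. Leaving out single animals gave 0 (without T35 animal 6) to 154 (without T31 animal 15). It gave 153 without T35 animal 11, 7 and 19 without T31 animals 1 and 10, 14 without T35 animal 1, 30 and 17 without F25 animals 3 and 18, and 25 and 27 without F27 animals 1 and 7. The 0 calls between F27 and F25 became 46 with DESeq2, 13 without a filter and 4 with all 18 libraries, and ran from 0 to 9 (without F27 animal 1) with single animals left out, with 1 without F25 animal 18. For changes of count not due to fewer samples or genes, the cause was not tested.

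Some animals of different time points carry the same number. Animals of a time point came from different dams, and the sources do not say whether same-numbered animals of different time points were related. Deviations of same-numbered libraries correlated at 0.056, 0.192, 0.273 and 0.257. Correlations of differently numbered libraries were not taken, so these values cannot decide the question. The numbers were not taken as pairs in the main test. With the number as a replicate block 2 genes were called between the phases (0 higher and 2 lower, 2140 with an unadjusted p under 0.05) and 375 between T35 and T31. Only numbers 1 and 11 occur in both phases, so the phase difference in that fit rests on animals with these numbers, none of them from F25. T31 and T35 share only number 1. Few degrees of freedom were left in both fits, so their counts cannot show what a true pairing would give. Of the 4 genes given in full, ENSOCUG00000003344, ENSOCUG00000005136 and ENSOCUG00000000672 had adjusted p values of 0.099, 0.0716 and 0.099 with this block, at log2 differences of 5.25, 5.19 and -2.21, and ENSOCUG00000003594 stayed called (adjusted p = 0.0353). A block for F27 against F25 could not be fitted, since they share no number. The planned removal of genes of red blood cells was not run, because no gene could be named. The removal of the 10 most counted genes, and of 11 genes that varied together, was added after seeing the data and left 1735 and 1736 calls between the phases.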

Other observations

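A set of 11 genes, among them the gene with the highest level of all genes not called, took 1 of 2 levels in each lung with no value between. They were picked after their values were seen, by their likeness to that gene, with a Pearson r of at least 0.953 over the 12 libraries against at most 0.851 for any other of 7915 genes, and all points share these libraries. In run 1 the 11 genes took 5.46% to 6.53% of all counts in 9 of the 18 libraries and 1.01% to 1.56% in the other 9. Their identifiers are neighbours. Of 32 identifiers listed from the first to the last, 11 reached 10 CPM on average and all 11 were in the set.

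A single gene ran opposite (r = -0.972). Over all 54 libraries it read 1.38 to 66.8 CPM in 29 and 1190 to 10200 CPM in 25, with no value between, and in every run the 11 genes took more counts where it was low. In run 2 their share was 8.93% to 10.7% where it was low and 2.39% to 3.23% where it was high, and in run 3 it was 6.79% to 10.6% and 1.3% to 3.47%. The level went with the animal. Each of the 6 animals with more than 1 library, 15 libraries in all, stayed on 1 side in every library.

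The levels were unequally divided over the time points of the comparison. The share of the 11 genes was 1.05%, 1.08% and 6.53% at F25, 1.56%, 5.46% and 6.38% at F27, 1.05%, 1.14% and 1.18% at T31, and 5.55%, 5.71% and 6.32% at T35. The phases were thus mixed, and 0 of the 11 genes was called between them. All 3 T31 animals lay on 1 side and all 3 T35 animals on the other, as did the 3 further T31 animals of run 3 on the side of T31. The T35 minus T31 log2 difference was 1.78 to 11.4 in the set and -8.3 in the opposite gene, and 0 of the 12 was called, with adjusted p values of at least 0.0532 in edgeR. What divides the animals was not tested. Age and this division cannot be told apart in the comparison of T35 with T31 and its 48 calls.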
